A study of Mus musculus with 12 samples.

Results

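The 6 genes described here are Ccn1, Ccn2, Ccn3, Ccn4 and Ccn5, which encode secreted proteins of the CCN matricellular family, and Ankrd1, which encodes a muscle ankyrin repeat protein. They were taken by gene symbol from a table of 78298 genes, and all 6 passed the filter on low counts, which kept 13318 genes. They were chosen with the difference between the RGECO and WT lines already known, so that difference is given for them as a description and with no p-value. The RNA was poly(A)-selected from C2C12, an established mouse myoblast line. RGECO is a C2C12 line with a genetically encoded calcium indicator, and WT is wild-type C2C12. Both were differentiated for 14 days on methacrylated gelatin hydrogel, in medium that held 10% horse serum, 50 ng per ml of IGF-1 and 1 mg per ml of aminocaproic acid. The sample records also give 10% fetal bovine serum for every library. Which promoter drives the indicator, and whether the line is 1 clone, is not given in the sources used.

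Each line had 6 libraries. RGECO replicate 4 held 825 counts and gives no usable value, so the values below rest on 5 RGECO libraries with 5881622 to 11926220 counts and 6 WT libraries with 9370322 to 11744314 counts. Nothing in the labels ties replicates to separate cultures, so p-values measure only the spread between these libraries, which may be technical. The summed level of 8 markers of skeletal myoblasts and myotubes was 12686 to 17417 TPM (transcripts per 1000000, a level per transcript length) in RGECO and 9912 to 11993 TPM in WT. Most of it was Acta1, and of the 8 tested, 2 were called higher and 1 lower in RGECO. The summed level of 6 fibroblast markers was 358 to 438 TPM in RGECO and 461 to 757 TPM in WT, with 1 of the 4 tested called higher and 2 lower, Thy1 below the filter and Tcf21 at 0 in every library. The 6 smooth muscle and pericyte markers summed to 103 to 189 TPM in RGECO and 129 to 180 TPM in WT, most of it Smtn, with none of the 3 tested called and Myh11, Rgs5 and Cnn1 below the filter. The 5 endothelial markers summed to at most 1.11 TPM in RGECO and 3.55 TPM in WT. The part of these markers in the results below was not tested. In bulk RNA, fewer cells of a type and less RNA per cell cannot be told apart.

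CCN proteins are built from a row of modules that bind integrins, heparan sulfate proteoglycans, growth factors and other matrix proteins, and CCN5 lacks the C-terminal cystine knot module that the other family members have. Ccn1 (also Cyr61) and Ccn2 (also Ctgf) are immediate-early genes that respond to serum, stretch and TGF-beta, and together with Ankrd1 they are the most used readouts of YAP and TAZ, the coactivators that act through TEAD transcription factors when the Hippo kinases are inactive. Ccn3 (also Nov) and Ccn5 (also Wisp2) have been described as opposing CCN2 in several tissues, and Ccn4 (also Wisp1) is known as a target of Wnt signalling and as a muscle stem cell niche factor. The Ankrd1 protein binds the N2A region of titin in the sarcomere and also enters the nucleus, and its gene is known to be induced by mechanical load and denervation.

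Upstream sequences from RefSeq (GRCm38.p6) were matched for 2 of the 6 genes, Ccn1 and Ankrd1. They are shown because they were the only members with a sequence in the source used, and both genes are classical TEAD targets. Ccn2, the other such readout named above, had no sequence there, so it could not be compared. The stretches are written 5′ to 3′ on the gene's strand, with the TEAD letters GGAATG or their complement CATTCC in capitals. Positions count back from the base before the RefSeq start site, which is -1. The Ccn1 window covers all 250 bases before that site (chr3:145649986-145650235, minus strand). The Ankrd1 stretches hold 30 bases each (chr19:36120037-36120066 and chr19:36119950-36119979, minus strand). GENCODE M21 starts 5 of the 6 Ankrd1 transcripts at 36119910, downstream of both stretches, and 1 at 36120099, upstream of both, so the stretches lie inside the annotated gene.
Ccn1 upstream: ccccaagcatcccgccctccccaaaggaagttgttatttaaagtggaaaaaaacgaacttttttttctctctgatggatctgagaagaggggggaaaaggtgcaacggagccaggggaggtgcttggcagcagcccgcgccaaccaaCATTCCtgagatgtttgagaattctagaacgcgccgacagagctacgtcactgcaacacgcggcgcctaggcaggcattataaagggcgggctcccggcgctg
Ankrd1 distal: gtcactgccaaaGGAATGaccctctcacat
Ankrd1 proximal: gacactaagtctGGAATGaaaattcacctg

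On either strand, the TEAD letters occurred 1 time in the Ccn1 window, at -103 to -98, and 2 times in the 250 bases before the RefSeq start of Ankrd1, at -210 to -205 and -123 to -118. They were present in 12.6% of 32851 upstream windows of the same length in the table. The SMAD letters CAGAC or GTCTG occurred 2 times before Ankrd1 and not before Ccn1, against 42.2% of all windows with them. The CArG box, the site of serum response factor, was in 1.47% of windows, and neither window held a match. These are matches of letters, and no match says only that the letters are not in these bases.

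In the RGECO tissues Ccn3 was the member with the largest difference, at 4.43 times its WT level, and Ccn5 the next, at 0.326 of it. Ccn4 and Ccn1 were also lower in RGECO, at 0.574 and 0.696 of the WT level, Ccn2 was higher at 1.39 times, and Ankrd1 was close to even at 0.938. These folds come from a fit of counts across all 13318 genes with edgeR, in which 8.35% of all genes passed adjusted p 0.05. Of the 6 members 5 were past that threshold, 2 as higher in RGECO and 3 as lower. The members were chosen on this contrast, so neither the count nor the single calls are a test of them, and nothing is read from them. Ccn1 did not pass without RGECO replicate 2 or 6, nor Ccn2 without RGECO replicate 1 or 6 or WT replicate 1 or 4. Nor did Ccn2 pass on log2(TPM + 1), on log2(TPM + 0.1) or with replicate number as a block in the fit. With all 12 libraries the number of members past the threshold was 3. The CPM ranges of the lines (CPM is counts per 1000000, scaled by TMM) did not overlap for 3 of the 6 members, against 7.97% of all genes. Ccn3 lay above WT, as 3.47% of genes did, and Ccn4 and Ccn5 lay below it, as 4.5% did.

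Ccn1 (ENSMUSG00000028195, chromosome 3: 145646976 to 145649981, minus strand, GRCm38) encodes an integrin ligand that is induced early after serum or stretch. It measured 308, 229, 248, 288 and 224 TPM in RGECO replicates 1, 2, 3, 5 and 6, against 309, 336 and 377 TPM as the lowest, median and highest of the 6 WT libraries. Every RGECO library lay below every WT library in TPM, though RGECO replicate 1 and the lowest WT library nearly met. In CPM it averaged 377 ± 52.7 in RGECO (SD, n = 5) and 541 ± 79.3 in WT (SD, n = 6), and these ranges overlapped. The log2 fold change was -0.52 ± 0.12 (SE), with a 95% interval of -0.78 to -0.26.

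Ccn2 (ENSMUSG00000019997, chromosome 10: 24595442 to 24598683, plus strand) encodes connective tissue growth factor, a profibrotic matrix protein. It measured 396, 202, 254, 243 and 295 TPM in the RGECO libraries in the same order, against 146, 182 and 228 TPM in WT. RGECO replicate 1 was the highest of the 11 libraries and RGECO replicate 2 lay inside the WT range, so the lines overlapped. The log2 fold change was 0.47 ± 0.12 (SE), with a 95% interval of 0.21 to 0.74. Gm15270, a noncoding gene on the opposite strand, overlaps Ccn2 and had 56 counts over the RGECO libraries and 46 over the WT libraries. Because strand is not stated, reads in the part that both genes cover cannot be told apart, and 19.7% of the 31-base words of the Ccn2 transcripts also occur in transcripts of other genes.

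Ccn3 (ENSMUSG00000037362, chromosome 15: 54745702 to 54754039, plus strand), a family member linked to Notch signalling, measured 18.5, 14.2, 21.7, 24.7 and 17.7 TPM in RGECO, against 2.01, 4.09 and 6.0 TPM in WT. The lowest RGECO library was more than 2 times the highest WT library. The counts behind these values were 264 to 490 in RGECO and 47 to 154 in WT. The log2 fold change was 2.15 ± 0.23 (SE), with a 95% interval of 1.66 to 2.63, and it ranked 27 from the top among the 13318 genes. Of its 31-base words, 1.45% also occur in other genes.

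Ccn4 (ENSMUSG00000005124, chromosome 15: 66891320 to 66923201, plus strand) measured 22.5, 15.2, 21.75, 15.6 and 12.6 TPM in RGECO, against 24.8, 27.3 and 36.1 TPM in WT. The lines did not overlap in TPM or in CPM, where the RGECO libraries reached 47.6 and the WT libraries began at 57.5. The log2 fold change was -0.80 ± 0.14 (SE), with a 95% interval of -1.09 to -0.51. Ccn4 stood out among the members in how counts relate to TPM. Its counts per TPM, set to the library's median gene and to a mean of 1 over the 11 libraries, ran between 0.853 and 1.48 in RGECO and between 0.687 and 1.29 in WT. For Ccn1, Ccn2, Ccn3 and Ankrd1 the same measure stayed between 0.946 and 1.07 in all 11 libraries. GENCODE M21 lists 6 transcripts of Ccn4 with lengths of 708 to 5097 bases, and whether their mix differed between libraries was not tested.

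Ccn5 (ENSMUSG00000027656, chromosome 2: 163820861 to 163833146, plus strand) was the least abundant member in RGECO, with 3.07, 2.58, 4.10, 7.66 and 0.956 TPM, against 7.29, 10.1 and 12.4 TPM in WT. RGECO replicate 5 reached into the WT range in TPM, while RGECO replicate 6 was lowest with 14 counts. In CPM the lines did not overlap, at 4.18 ± 3.01 in RGECO (SD, n = 5) and 12.4 ± 2.08 in WT (SD, n = 6). The log2 fold change was -1.62 ± 0.37 (SE), with a 95% interval of -2.40 to -0.83. Its coefficient of variation within RGECO, 72.0%, was the largest of the 6 members in either line, against 16.7% within WT. Ccn5 shared no 31-base word with another gene in the annotation.

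Ankrd1 (ENSMUSG00000024803, chromosome 19: 36111961 to 36120099, minus strand) measured 383, 316, 394, 257 and 503 TPM in RGECO, against 256, 373 and 489.9 TPM in WT. Both lines spanned nearly the same range. The log2 fold change was -0.09 ± 0.14 (SE), with a 95% interval of -0.38 to 0.20. Its sign was not stable, at 0.01 on log2(TPM + 1). Ccn6, the remaining gene of the family, had no count in any of the 11 libraries, where 3 counts correspond to 0.246 to 0.525 CPM per library.

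**Figure D1:**
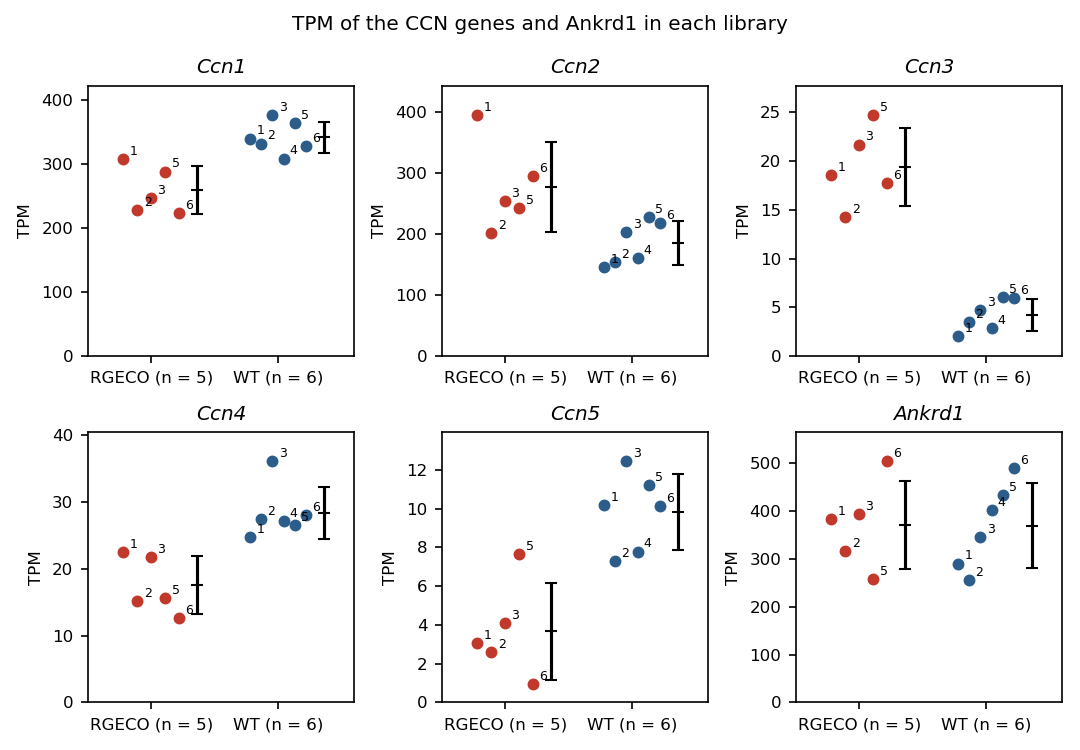
TPM of each of the 6 genes in every library, with RGECO (red, n = 5) left of WT (blue, n = 6), points numbered by replicate, and bars showing the mean ± SD. Ccn3 is higher in all RGECO libraries than in any WT library, Ccn1 and Ccn4 are lower in all of them, and Ankrd1 spans a similar range in both lines.

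TPM is per length, so the members can be ranked within a line. In RGECO the mean levels ran Ankrd1 at 371 TPM, Ccn2 at 278, Ccn1 at 259, Ccn3 at 19.4, Ccn4 at 17.5 and Ccn5 at 3.67. The ranges of Ankrd1, Ccn2 and Ccn1 overlapped one another, as did those of Ccn3 and Ccn4, and their order varied between libraries. Ccn1 and Ccn2 were each above Ankrd1 in 1 of 5 RGECO libraries. Ccn1 was above Ccn2 in 2 of 5, and Ccn3 above Ccn4 in 2 of 5. In WT the order was Ankrd1 at 369 TPM, Ccn1 at 342, Ccn2 at 185, Ccn4 at 28.4, Ccn5 at 9.83 and Ccn3 at 4.16. There only Ankrd1 and Ccn1 overlapped, with Ankrd1 the higher in 3 of 6 libraries. Ccn3 therefore took the lowest place in each WT library and stood above Ccn5 in each RGECO library.

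The summed level of the 5 CCN genes overlapped between the lines, at 578 ± 104 TPM in RGECO (SD, n = 5) and 569 ± 58.5 TPM in WT (SD, n = 6), while the shares of its genes did not. Ccn1 made up 45.3% ± 4.33 of the sum in RGECO (SD, n = 5) and 60.3% ± 3.59 in WT (SD, n = 6). Ccn2 made up 47.7% ± 5.33 in RGECO (SD, n = 5) and 32.3% ± 3.56 in WT (SD, n = 6). The shares of 1 sum depend on each other, so a higher share of Ccn2 lowers that of Ccn1. Ccn3 was 2.48% to 4.27% of the sum in RGECO and 0.385% to 1.00% in WT. A ratio of 2 genes within a library does not depend on how libraries are scaled. The ratio of Ccn2 to Ccn1 was 0.841 to 1.32 in RGECO and 0.428 to 0.663 in WT, with no overlap. The ratio of Ccn3 to Ccn5 was 3.23 to 18.5 in RGECO and 0.198 to 0.585 in WT, again with no overlap. Both ratios restate the members' line differences and carry no test.

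**Figure D2:**
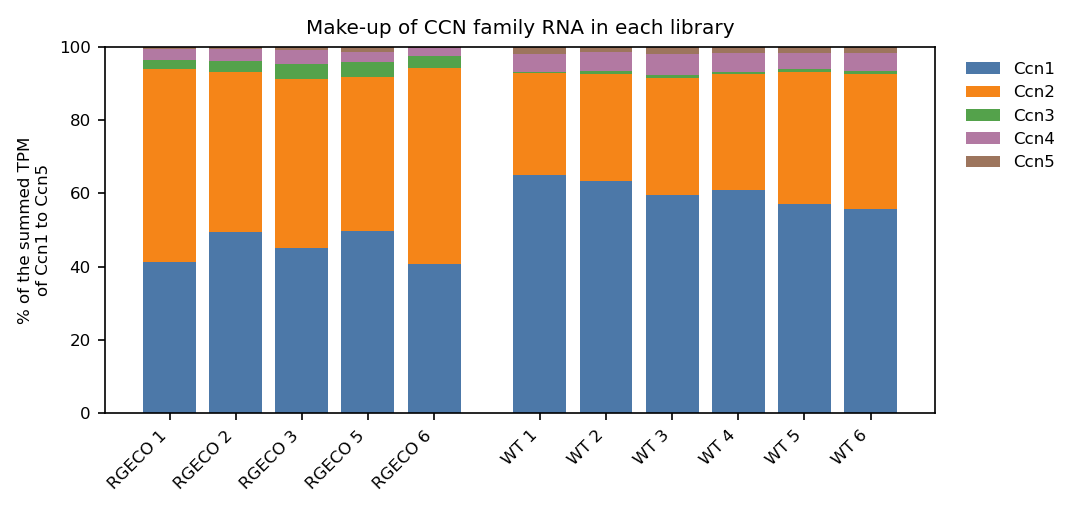
Share of each gene in the summed TPM of Ccn1 to Ccn5, in percent, with 1 bar per library and the RGECO libraries left of the WT libraries. Ccn1 is 40.7% to 49.8% of the sum in RGECO and 55.6% to 65.1% in WT, and the Ccn3 band is visibly wider in RGECO.

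How the members vary within a line does not depend on the choice made between lines. The 6 WT libraries differed in the share of counts taken by Malat1, an abundant nuclear noncoding RNA, from 0.156% to 0.898%. In RGECO this share was 0.180% to 0.645%. Within WT, Ccn1 in CPM fell in exact order as that share grew, with 648 CPM in WT replicate 2 at the lowest share and 442 CPM in WT replicate 6 at the highest. Pearson's r was -0.98 (exact permutation p = 0.00139, adjusted p = 0.0333 over 24 relations, n = 6) and Spearman's rho was -1.0 (exact permutation p = 0.00278, adjusted p = 0.0667). Without WT replicates 2 and 6, the libraries farthest from the median share, r was -0.996 over 4 libraries. In TPM, r was -0.17 (exact permutation p = 0.754, n = 6). The share of mitochondrial genes gave similar values for Ccn1 in CPM, with r = -0.95 (exact permutation p = 0.00972, adjusted p = 0.0600, n = 6) and rho = -0.89 (exact permutation p = 0.0333, adjusted p = 0.160), and r = -0.90 without WT replicates 2 and 4. In TPM the r with the mitochondrial share was -0.48 (exact permutation p = 0.347, n = 6). Both shares were lowest in WT replicate 2 and highest in WT replicates 4 and 6, so the 2 relations are not separate evidence.

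Ankrd1 had the opposite sign in both units and did not pass after adjustment, with r = 0.89 in CPM and 0.93 in TPM (exact permutation p = 0.0125 and 0.00972, adjusted p = 0.0600 for both, n = 6), and rho was 0.94 in each (exact permutation p = 0.0167, adjusted p = 0.133). Without WT replicates 2 and 6, r was 0.82 in CPM and 0.81 in TPM. Against the mitochondrial share, r of Ankrd1 was 0.89 in CPM and 0.85 in TPM (exact permutation p = 0.0361 and 0.0389, adjusted p = 0.133 for both, n = 6), rho was 0.77 in each (exact permutation p = 0.103, adjusted p = 0.352), and r without WT replicates 2 and 4 was 0.94 and 0.89. Ccn4 had r = 0.91 in CPM (exact permutation p = 0.0125, adjusted p = 0.0600) and rho = 0.89 (exact permutation p = 0.0333, adjusted p = 0.160), and r = 0.87 without the same 2 libraries. In TPM the r of Ccn4 was 0.07 (exact permutation p = 0.876). Against the Malat1 share, Ccn2, Ccn3 and Ccn5 had unadjusted p of at least 0.175 in either unit by either measure (exact permutation, n = 6). The 24 relations cover 6 genes, 2 units and the shares of Malat1 and of mitochondrial genes and were chosen after the data were seen. No correlation was computed over the 5 RGECO libraries. In order of their Malat1 shares of 0.180%, 0.252%, 0.274%, 0.633% and 0.645%, Ccn1 was at 367, 333, 455, 401 and 328 CPM, which does not follow the order seen in WT. With that share as a term in the fit, the log2 fold change of Ccn1 was -0.61 and that of Ccn4 was -0.67, while that of Ankrd1 was 0.02. The term has a common slope for both lines, so these values do not allow for the different order in RGECO.

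**Figure D3:**
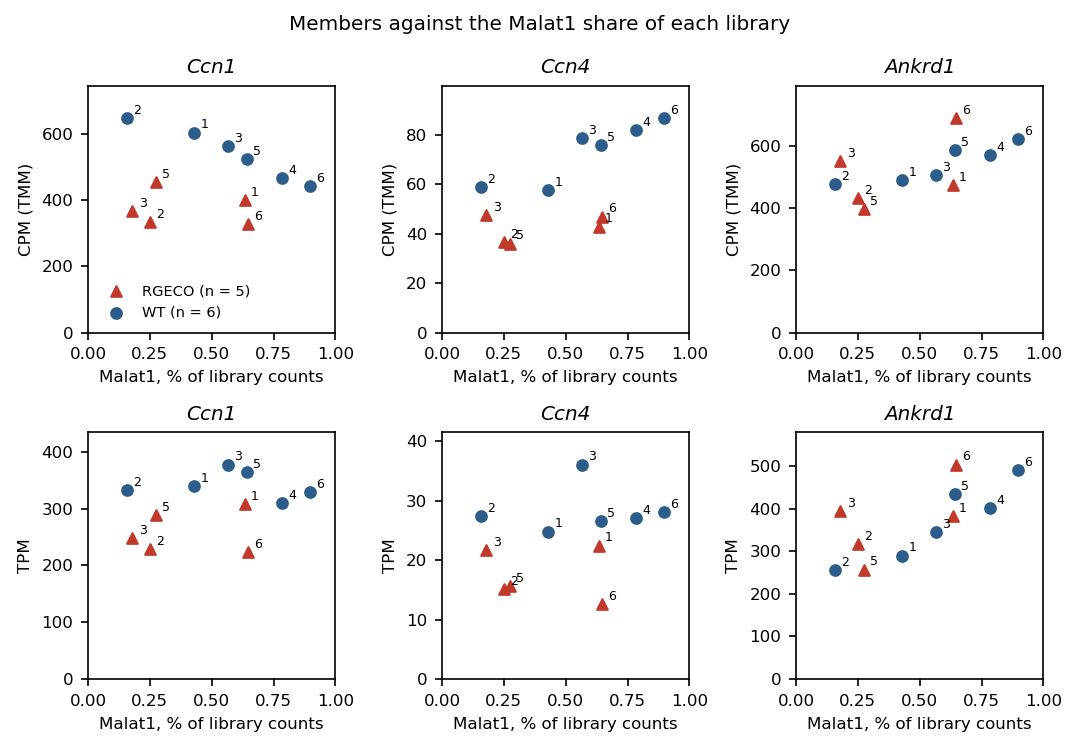
Ccn1, Ccn4 and Ankrd1 in CPM (top) and TPM (bottom) against the Malat1 share of library counts in percent, for RGECO (red triangles, n = 5) and WT (blue circles, n = 6), numbered by replicate. In WT, Ccn1 falls in CPM as the share grows but not in TPM, and Ankrd1 is higher at higher shares in both units (adjusted p = 0.0600, exact permutation).

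Genes that varied most like each member within the lines were sought by Pearson's r over the 11 libraries, with values centred within each line, among genes averaging log2 CPM 4 or more. This is a description, since the highest of many values over 11 libraries is high by selection. For Ccn1 they were Samd1, Pias4 and the pyruvate kinase gene Pkm, with r of 0.986, 0.985 and 0.983. For Ccn2 they were Il6ra, Elf2 and Ehd3 (0.939, 0.900 and 0.869), and for Ccn3 Kbtbd4, Ptpn3 and Ccdc93 (0.904, 0.886 and 0.794). For Ccn4 they were Kmt5b, Nepro and Zfp410 (0.945, 0.924 and 0.914), for Ccn5 Exoc8, Lurap1l and Rap2b (0.949, 0.923 and 0.920), and for Ankrd1 Phf20, Rab3gap2 and Larp4 (0.957, 0.918 and 0.908). None of these 18 genes passed adjusted p 0.05 between the lines in the edgeR fit. No member appeared among another's 3 nearest genes, but Ccn5 averaged under log2 CPM 4 and could not. Between members r was not always small, and ran from -0.72 for Ccn1 and Ccn4 to 0.77 for Ccn4 and Ankrd1.

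The genes around the members were followed in 6 lists, tested by edgeR with p-values adjusted by Benjamini-Hochberg over all 13318 genes, where 3.42% of genes were higher and 4.93% lower in RGECO and the median log2 fold change was -0.01. The lists were chosen with earlier results of these data known, so their counts and p-values are not independent evidence. Among 23 genes of the Hippo pathway, which sets the activity of YAP and TAZ, none passed in either direction in edgeR or DESeq2. Without RGECO replicate 1, 1 was lower. Of the 23 genes, 0 were higher and 2 lower at an unadjusted p under 0.05. Their median log2 fold change was 0.00, and 22 of 23 had a 95% interval inside 2-fold. The YAP-binding protein gene Amotl1 was at 0.16 (adjusted p = 0.362) and the kinase gene Taok1 at 0.32 (adjusted p = 0.396).

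Of 18 measured YAP and TAZ target genes other than the members, 5 fell and none rose by edgeR, and their median was -0.05. At an unadjusted p under 0.05, 6 were lower and 1 was higher, and DESeq2 called 5 lower and 0 higher. F3, the tissue factor that starts blood clotting, fell the most, to 3.60 ± 0.974 CPM in RGECO (SD, n = 5) against 15.5 ± 0.977 CPM in WT (SD, n = 6). This was -2.13 ± 0.19 (SE) on the log2 scale, with an edgeR adjusted p of 1.03e-05. The transcription factor gene Foxf2 fell by 1.22 (log2, adjusted p = 0.0176), Igfbp3, an IGF-binding protein, by 0.86 (adjusted p = 0.0291) and Crim1 by 0.63 (adjusted p = 0.0463). The fifth, Nt5e, which encodes an ectonucleotidase, was named after its value was seen and fell by 0.58 (adjusted p = 0.0107). The 2 most abundant targets that did not pass were Amotl2 at -0.40 (adjusted p = 0.0837) and Ccdc80 at 0.03 (adjusted p = 0.940). The number that fell was 2 without RGECO replicate 3 or 6, and 3 without RGECO replicate 1 or WT replicate 1, 2 or 3. It was also 2 on log2(TPM + 1), while F3 kept its call in all of these. Crim1 passed in only 1 of the 11 fits with a library left out, the one without RGECO replicate 2, and Foxf2 did not pass without RGECO replicate 2, 3 or 6. Igfbp3 did not pass without RGECO replicate 1, 3 or 6 or WT replicate 1, 2 or 3.

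Of 15 measured genes tied to serum response factor and its MRTF coactivators, 3 fell and none rose, with a median of -0.13. At an unadjusted p under 0.05 these numbers were 5 and 0, and DESeq2 called 4 and 0. Myl9, a myosin light chain of contractile nonmuscle and smooth muscle cells, fell to 8.32 ± 2.27 CPM in RGECO (SD, n = 5) against 18.02 ± 3.99 CPM in WT (SD, n = 6). This was -1.11 ± 0.21 (SE) on the log2 scale, with an edgeR adjusted p of 0.00370. Srf, the factor itself, fell by 0.79 (adjusted p = 0.0260) and the actin-binding protein gene Tagln by 0.70 (adjusted p = 0.0178). The cytoplasmic actin Actb at -0.12 (adjusted p = 0.561) and the smooth muscle actin Acta2 at -0.39 (adjusted p = 0.0669) did not pass. Without RGECO replicate 6, and on log2(TPM + 1), only 1 gene of the list passed. Srf did not pass without RGECO replicate 1, 2, 5 or 6 or WT replicate 1 or 3, nor Tagln without RGECO replicate 3 or 6 or WT replicate 5. Acta2 passed as lower without RGECO replicate 3 (adjusted p = 0.0205) and by DESeq2.

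Genes that respond to TGF-beta, a known inducer of Ccn2, were the list with most calls. Of 15 measured, 8 fell and none rose, with a median log2 fold change of -0.72. At an unadjusted p under 0.05, 11 were lower and 0 higher, and DESeq2 called 10 and 0. Pmepa1, an inhibitor of SMAD signalling, fell to 41.1 ± 6.23 CPM in RGECO (SD, n = 5) against 73.2 ± 11.7 CPM in WT (SD, n = 6). This was -0.83 ± 0.14 (SE) on the log2 scale, with an edgeR adjusted p of 0.00150. The latent TGF-beta binding protein gene Ltbp2 had a log2 fold change of -1.01 (adjusted p = 0.00383), the collagen gene Col3a1 of -0.80 (adjusted p = 0.00106) and Col1a1 of -1.98 (adjusted p = 7.18e-05). Fibronectin (Fn1) at -0.03 (adjusted p = 0.932) and Bhlhe40 at 0.07 (adjusted p = 0.759) did not pass. The lower direction of the collagens was known when the list was made, so it is not independent evidence. The summed fibroblast markers were also lower in RGECO, mostly through Col1a1, itself a gene of this list, at 73.7 to 163 TPM in RGECO and 330 to 604 TPM in WT. Dcn, the other abundant fibroblast marker, went the other way, at 206 to 335 TPM in RGECO and 73.2 to 194 TPM in WT. Pdgfrb, a fibroblast marker outside this list, was lower, at 5.70 to 8.45 TPM in RGECO and 16.6 to 24.4 TPM in WT. For Pdgfra the lines overlapped. The part of fibroblast markers in this list was not tested. Without RGECO replicate 2 the number that fell was 5, and on log2(TPM + 1) it was 3. With all 12 libraries it was 4, and under the replicate block 5.

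Among 14 measured genes for receptors and binding partners of CCN proteins, 1 rose and 2 fell, and the median was 0.16. At an unadjusted p under 0.05, 5 were higher and 3 lower, DESeq2 called 1 higher and 2 lower, and with the Malat1 share as a term 6 were higher and 4 lower. Itgb3, the integrin beta chain that pairs with alpha v to bind CCN1 and CCN2, rose by 0.44 to 100.2 ± 10.1 CPM in RGECO (SD, n = 5) against 73.7 ± 9.09 CPM in WT (SD, n = 6; adjusted p = 0.0231 by edgeR). Its call was lost without RGECO replicate 1 or 5 or WT replicate 4 (adjusted p = 0.0621, 0.0517 and 0.0513) and without the filter, on TPM or under the replicate block. Sdc4, a heparan sulfate proteoglycan, fell by 0.56 to 196 ± 10.7 CPM in RGECO (SD, n = 5) against 288 ± 15.2 CPM in WT (SD, n = 6; adjusted p = 7.21e-04 by edgeR). The growth factor receptor gene Fgfr2 had 0.528 ± 0.839 CPM in RGECO (SD, n = 5) and 3.89 ± 1.53 CPM in WT (SD, n = 6; adjusted p = 0.0141 by edgeR), close to the floor of 3 counts. Itgb1 at 0.44 (adjusted p = 0.211) and the endocytic receptor gene Lrp1 at 0.38 (adjusted p = 0.159) did not pass.

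The last list joined Ankrd1's relatives Ankrd2 and Ankrd23 with Ttn, Mypn, Capn3, Des, Casq2, Csrp3, Tcap, Trim63 and Ybx1. It is a mixed set, and not all of these act at the titin N2A region. Its median log2 fold change was 0.07. Of 11 measured, none passed in edgeR, while at an unadjusted p under 0.05, 2 were higher and 2 lower, and DESeq2 called 2 higher and 0 lower. All 11 had a 95% interval inside 2-fold. Without RGECO replicate 1 or WT replicate 2, 1 gene passed as higher. The titin gene Ttn was at 0.07 (adjusted p = 0.844) and desmin (Des), the muscle intermediate filament, at 0.44 (adjusted p = 0.0965), which passed without WT replicate 2 (adjusted p = 0.0266) and by DESeq2.

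**Figure D4:**
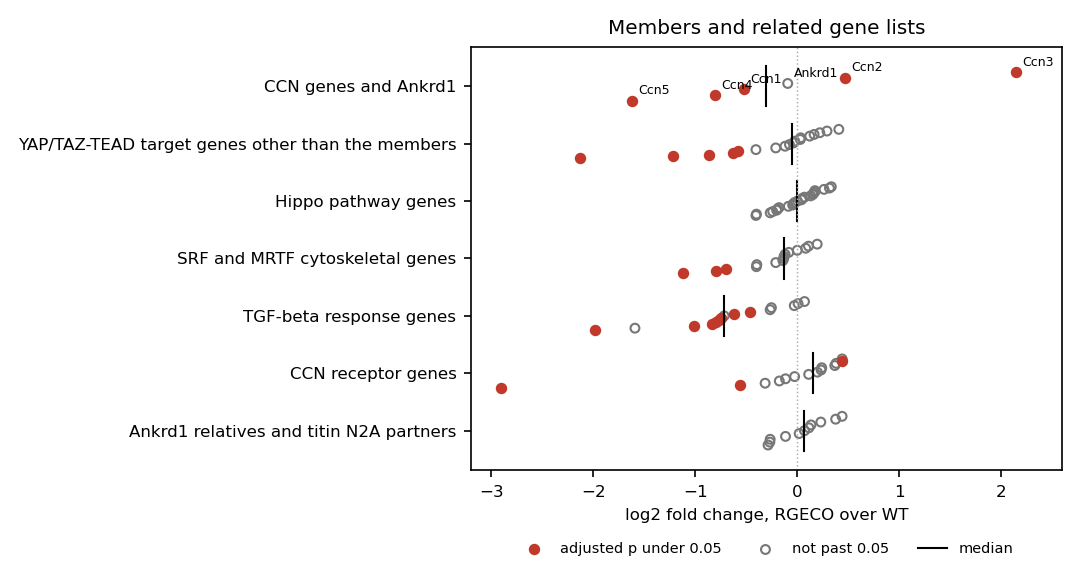
Log2 fold change (RGECO over WT) of each measured gene in the members and in the 6 related lists, 1 point per gene, filled where adjusted p is under 0.05, with a bar at each list's median. The Hippo pathway genes and the mixed list of Ankrd1's relatives and other muscle genes hold no filled point. The TGF-beta response genes sit furthest to the left, with a median of -0.72.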

How the data were processed

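The authors deposited estimated counts per gene, not normalised, and TPM per gene, which is scaled by transcript length to 1000000 per library. Per the file names, Salmon made both. The submitters' processing notes list STAR, Salmon, bedtools 2.25.0 and BWA 0.7.12-r1039, with builds GRCm39, mm10 and hg19. What each was used for, the annotation and the strand setting were not given in the sources used. RGECO replicate 4 was left out for its total, under a minimum of 1000000 counts. The test, on rounded estimated counts, was that of edgeR 4.0.16, run in R 4.3.3 (filterByExpr, TMM, robust quasi-likelihood F test, Benjamini-Hochberg over the 13318 genes kept, adjusted p 0.05). SE and 95% intervals came from the F statistic. CPM is per 1000000 counts in the genes kept, scaled by TMM. The floor of 3 counts covers counting error only. Alternatives were DESeq2 1.42.0, RLE size factors, no filter, limma 3.58.1 on log2(TPM + 1) and log2(TPM + 0.1), the replicate block, all 12 libraries, and each library left out. No 2 libraries were alike within sampling noise (chi-square per gene of at least 7.61 over 25 pairs within lines). The members and lists were chosen with earlier results of these data known. Besides the members and Ccn6, named genes are, per list, up to 4 called genes with the highest and 4 with the lowest log2 fold change and the 2 most abundant uncalled genes, and the 3 genes most like each member. Coordinates, transcripts and the 31-base words are from GENCODE M21 (GRCm38).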

Additional observations from a re-analysis of the deposited data

Results flagged for a closer look

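Of 70 sets of values examined for a library apart from the rest of its line, 4 had one, and chance gives about 1 in 20. The ratio of Ccn3 to Ccn5 in RGECO replicate 6 was 18.5, against 3.23 to 6.04 in the other 4 RGECO libraries, and rests on 14 counts of Ccn5. Ccn4 in WT replicate 3 was 36.1 TPM, against 24.8 to 28.1 TPM in the other WT libraries. Ccdc80 in RGECO replicate 5 was 378 CPM, against 205 to 243 CPM in the other RGECO libraries. Fgfr2 in RGECO replicate 1 was 2.01 CPM, against 0 to 0.334 CPM in the other RGECO libraries.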

How the results depend on the processing

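The log2 fold changes of the 6 members moved by less than 1 SD between libraries of a line in all 20 alternatives. With 1 library left out they ran from -0.60 to -0.46 for Ccn1, 0.37 to 0.57 for Ccn2, 2.01 to 2.27 for Ccn3, -0.85 to -0.74 for Ccn4, -2.05 to -1.34 for Ccn5 and -0.21 to -0.01 for Ankrd1. The number of members past adjusted p 0.05 was 3 to 5 with 1 library left out and 3 with all 12 libraries. The genes called over all genes, 1112 in all with 456 higher and 656 lower, were 785 to 1140 with 330 to 478 higher and 455 to 662 lower when 1 library was left out. With all 12 libraries 237 were higher. DESeq2 called 1674, 753 of them higher. On log2(TPM + 1) 605 were called, 261 of them lower, and on log2(TPM + 0.1) 587, 257 of them lower. With the Malat1 share as a covariate 2771 were called, 1395 higher and 1376 lower, and with the mitochondrial share 3133, 1614 higher and 1519 lower; both fits were chosen after the data were seen. Over the 6 lists 19 genes were called, 12 with all 12 libraries, 9 on log2(TPM + 1) and on log2(TPM + 0.1), 35 with the Malat1 share, 40 with the mitochondrial share, and 13 to 17 with 1 library left out. With the mitochondrial share 7 SRF and MRTF genes were lower, and 3 Hippo genes were higher and 2 lower. The cause of these changes was not tested. Replicate numbers are not said to pair the libraries. Same-numbered pairs correlated at -0.153 to 0.364 and other pairs at -0.312 to 0.268, which cannot decide whether the numbers pair them. Under the replicate block 781 genes were called, 316 higher and 465 lower, with 4 of 6 members and 14 list genes among them. In CPM 10 of 12 places in the order of the members' line means were as in TPM. Depth limits Ccn5, with 14 to 53 counts per RGECO library.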
